A study of Mus musculus with 8 samples.

Results

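Intestinal stem cell and Wnt target genes were followed in mixed co-cultures of mouse spleen cells and colon cancer cells. The set holds 10 genes, taken by symbol: Lgr5, Axin2, Ascl2, Sox9, Myc, Ccnd1, Rnf43, Znrf3, Prom1 and Notum. Each symbol matched 1 of the 52636 gene IDs in the files, and 9 of the 10 were among the 11433 genes that reached at least 1 TPM in 4 or more libraries and were tested. TPM is a transcript level scaled per length and to the same sum in every library. It is used below to set genes side by side, and their order can differ by deposited coverage. Notum did not reach 1 TPM in 4 libraries and is given by its values only.

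Polyadenylated RNA came from whole co-cultures, so a value sums over all cells present, and fewer cells of a type cannot be told apart from less RNA per cell. The cancer cells were grown from colon cancer organoids that carried the red reporter tdTomato, injected into the spleen and recovered from liver metastases, so the cells of both groups share the reporter and the metastatic site. Sorting used tdTomato and the helper T cell protein CD4. It gave trogocytic cells, which have taken up membrane proteins of another cell, and non-trogocytic cells, the control. Each kind was kept for 5 days with C57BL/6 splenocytes, taken from syngeneic Actin-GFP reporter mice, at 1 cancer cell to 50 splenocytes, and each group had 4 libraries. The labels give no driver mutations of the organoids and no age of the mice. They do not say whether replicates came from separate animals or cultures, so the spread behind every p-value is that of these libraries and may be technical.

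In the intestine, Wnt ligands bind Frizzled and LRP receptors at the base of the crypt, which stops the destruction of beta-catenin and lets it switch on genes together with TCF/LEF factors. Wnt signalling keeps crypt stem cells dividing, and most colon cancers carry mutations that activate the pathway. Lgr5 marks crypt base stem cells and encodes a receptor for R-spondins. Axin2, Rnf43, Znrf3 and Notum are targets that feed back to dampen the signal, and Ascl2, Sox9, Myc and Ccnd1 encode transcription factors and a cyclin that act downstream of it.

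Aligned bases came to 1.39 to 1.84 Gb per library. Between 10867 and 12362 genes reached 1 TPM. All 10 epithelial markers looked at were found, but Krt20 was listed at 0 in replicates 1 and 4 of both groups. The summed level of the 10, led by Krt18, was 2869 to 8191 TPM in non-trogocytic and 4696 to 5994 TPM in trogocytic co-cultures. The 6 pan-leukocyte markers summed to 611 to 3087 and to 843 to 2204 TPM. Non-trogocytic replicate 1 had the lowest Epcam, an epithelial adhesion molecule, at 249 TPM, and the highest Ptprc, which encodes the leukocyte antigen CD45, at 345 TPM. All 6 hepatocyte markers were found in non-trogocytic replicate 3 alone, with a sum of 148 TPM against 0 in the other 7 libraries. The 7 fibroblast markers summed to 35.6 TPM in the same library, to 0.560 to 11.8 TPM in the other 3 non-trogocytic libraries and to at most 0.185 TPM in the trogocytic ones. Of 6 Paneth cell markers, 5 were listed at 0 in all 8 libraries.

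Of the 9 tested genes, none was called different between trogocytic and non-trogocytic co-cultures, as a level or relative to Epcam. This does not show that they were equal. Lgr5 and Prom1 had the most negative fold changes of the 9, but in both the groups overlapped. By limma with Benjamini-Hochberg adjustment over all tested genes, 0 of 9 passed as a level, where 0.0525% of all genes were called, and 0 of 9 passed relative to Epcam, where 0% were called. At an unadjusted p below 0.05 there were likewise 0 of 9 on both scales, against 4.59% of all genes for the level and 3.64% relative to Epcam. With the keratin Krt18 in place of Epcam, 2 of 9, Lgr5 and Prom1, were below that unadjusted level and 0 passed the adjustment. With this reference, 493 of all 11433 genes had an unadjusted limma p below 0.05. The median log2 fold change of all genes was then −0.2. Groups without overlap were seen in 0 of 9 genes and in 2.68% of all genes tested. The median log2 fold change of the 9 genes, trogocytic minus non-trogocytic on log2(TPM + 1), was −0.06 with 6 of 9 below 0, beside 0.007 and 49.3% below 0 over all genes. Relative to Epcam it was −0.01 with 5 of 9 below 0, beside 0.06 and 44.2% below 0.

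**Figure D1:**
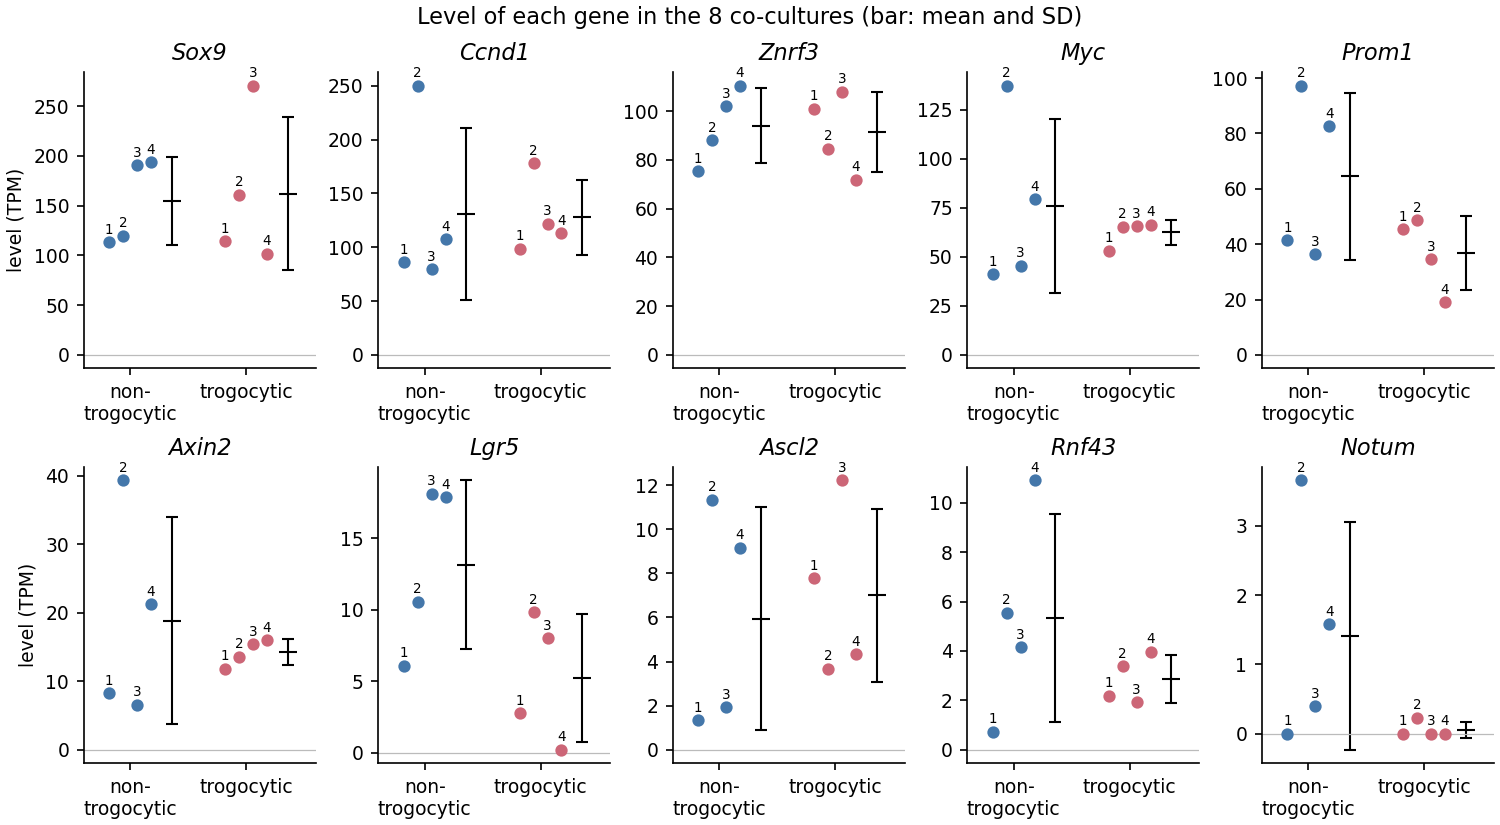
Level in TPM of each of the 10 genes in 4 non-trogocytic (blue) and 4 trogocytic (red) co-cultures, with replicate numbers beside the points and the mean and SD as black bars. Lgr5 reached 18.1 TPM in non-trogocytic replicate 3 and 0.217 TPM in trogocytic replicate 4, and the groups overlap in every panel.

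By mean level over the 8 libraries, Sox9 stood first at 158 TPM, followed by Ccnd1 at 130 TPM, Znrf3 at 92.7 TPM, Myc at 69.2 TPM and Prom1 at 50.7 TPM. Axin2 at 16.5 TPM, Lgr5 at 9.19 TPM, Ascl2 at 6.47 TPM, Rnf43 at 4.10 TPM and Notum at 0.734 TPM formed the lower part of the order. The ranges over libraries of all neighbours in this order overlapped. Compared within the same library in TPM, Prom1 was above Axin2 and Rnf43 above Notum in 8 of 8. By deposited coverage (mean read depth per base), Notum was above Rnf43 in non-trogocytic replicate 2, at 2.4 against 0.555. In non-trogocytic replicate 4, Ascl2 was above Lgr5 by coverage, at 5.991 against 5.579, but below it in TPM, at 9.157 against 17.89. The lowest Myc library, at 41.1 TPM, still lay above the highest Axin2 library, at 39.3 TPM. Levels between libraries differed least for Znrf3 among the 9 tested genes, with a highest level 1.54 times the lowest, and most for Lgr5, with 83.5 times. The lower genes rest on few reads: the deposited coverage corresponds to an estimated 3.24 to 350 read pairs per library for Lgr5, 9.03 to 64.8 for Ascl2 and 3.27 to 32.9 for Rnf43, against 1330 to 3710 for Sox9.

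Lgr5 (ENSMUSG00000020140.15, chromosome 10, 115450311 to 115587780, minus strand), the R-spondin receptor that marks crypt base stem cells, stood at 6.09, 10.6, 18.1 and 17.9 TPM in non-trogocytic replicates 1 to 4. In the trogocytic co-cultures it stood at 2.79, 9.86, 8.01 and 0.217 TPM. The 2 highest libraries were non-trogocytic and the 2 lowest trogocytic, but trogocytic replicates 2 and 3 lay above non-trogocytic replicate 1. The means were 13.2 ± 5.88 and 5.22 ± 4.48 TPM (SD, n = 4 each). The log2 fold change, given with its SE here and below, was −1.51 ± 0.71 (95% interval −3.07 to 0.05; limma adjusted p = 0.9998). As a share of Epcam, Lgr5 made up 2.44%, 2.80%, 5.07% and 3.61% in non-trogocytic and 0.876%, 2.77%, 2.06% and 0.0665% in trogocytic replicates 1 to 4. Relative to Epcam the log2 fold change was −1.46 ± 0.66 (95% interval −2.92 to 0.005; limma adjusted p = 1).

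Leaving out 1 library moved this difference by more than 1.5 times. Trogocytic replicate 4 held an estimated 3.24 read pairs of Lgr5, and without it the log2 fold change was −0.87 as a level and −0.84 relative to Epcam (limma adjusted p = 0.999 and 0.9997). The highest Lgr5 value was in non-trogocytic replicate 3, the library with hepatocyte markers; the part of those cells in the Lgr5 value was not tested. Without that library the log2 fold change was −1.33 as a level and −1.27 relative to Epcam (limma adjusted p = 0.994 and 1). Without replicate 1 of both groups it was −1.71 and −1.52. The antisense gene A930009A15Rik, which overlaps Lgr5, stood at a mean of 0.136 TPM.

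Prom1 (ENSMUSG00000029086.15, chromosome 5, 43993620 to 44102032, minus strand) encodes prominin 1, or CD133, a membrane protein used as a marker of stem and cancer stem cells. It stood at 41.5, 97.2, 36.5 and 82.7 TPM in non-trogocytic and at 45.3, 48.6, 34.6 and 19.1 TPM in trogocytic replicates 1 to 4. Non-trogocytic replicates 2 and 4 were above all other libraries, while replicates 1 and 3 lay inside the trogocytic range. The means were 64.5 ± 30.1 and 36.9 ± 13.3 TPM (SD, n = 4 each), with a log2 fold change of −0.75 ± 0.40 (95% interval −1.64 to 0.14; limma adjusted p = 0.9998). Its share of Epcam was 17.3 ± 6.37% and 10.7 ± 3.99% (SD, n = 4 each), with a log2 fold change of −0.70 ± 0.38 relative to Epcam (95% interval −1.53 to 0.13; limma adjusted p = 1). Without non-trogocytic replicate 2 the level differed by −0.51 and without trogocytic replicate 4 by −0.47 (limma adjusted p = 0.9994 and 0.999).

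Of the transcription factors, Sox9 was the most abundant and Ascl2 the least. Sox9 (ENSMUSG00000000567.5, chromosome 11, 112782224 to 112787760, plus strand), which acts in crypt stem and Paneth cells, stood at 113, 120, 191 and 194 TPM in non-trogocytic and at 114, 161, 271 and 102 TPM in trogocytic replicates 1 to 4. The trogocytic group held both the highest and the lowest Sox9 library. The log2 fold change was 0.004 ± 0.32 (95% interval −0.71 to 0.72; limma adjusted p = 0.9998). Relative to Epcam it was 0.06 ± 0.29, and −0.20 with Krt18 in place of Epcam, a change of reference that moved the median of all genes by −0.26.

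Ascl2 (ENSMUSG00000009248.6, chromosome 7, 142966829 to 142969264, minus strand), a basic helix-loop-helix factor needed by Lgr5-positive stem cells, stood at 1.34, 11.3, 1.92 and 9.16 TPM in non-trogocytic and at 7.77, 3.68, 12.2 and 4.33 TPM in trogocytic replicates 1 to 4. Within the non-trogocytic group, replicates 2 and 4 were high and replicates 1 and 3 low. Its log2 fold change was 0.44 ± 0.65 (95% interval −1.01 to 1.89; limma adjusted p = 0.9998), and 0.49 ± 0.60 relative to Epcam. Leaving out non-trogocytic replicate 1 gave a level difference of 0.036, leaving out replicate 2 of that group gave 0.835, and it was −0.051 without replicate 1 of both groups. Unlike Lgr5, Ascl2 had its highest library in the trogocytic group.

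Myc (ENSMUSG00000022346.15, chromosome 15, 61985391 to 61990374, plus strand), a driver of growth and proliferation, stood at 41.1, 137, 45.5 and 79.3 TPM in non-trogocytic and at 53.2, 65.5, 65.5 and 66.4 TPM in trogocytic replicates 1 to 4. All 4 trogocytic libraries lay within the non-trogocytic range. The log2 fold change was −0.11 ± 0.36 (95% interval −0.90 to 0.69; limma adjusted p = 0.9998) and −0.05 ± 0.33 relative to Epcam. Ccnd1 (ENSMUSG00000070348.5, chromosome 7, 144929931 to 144939925, minus strand), which encodes cyclin D1 of the G1 phase of the cell cycle, stood at 86.5, 250.1, 79.8 and 107.6 TPM in non-trogocytic and at 98.8, 178, 122 and 113 TPM in trogocytic replicates 1 to 4. Replicate 2 was the highest Ccnd1 library within each group. Its log2 fold change was 0.10 ± 0.35 (95% interval −0.69 to 0.88; limma adjusted p = 0.9998) and 0.15 ± 0.36 relative to Epcam, but −0.11 relative to Krt18. Ccnd1 overlaps Oraov1 on the other strand, and with Oraov1 at a mean of 38.3 TPM the assignment of reads to Ccnd1 is uncertain. Myc is also used by dividing leukocytes, and Ccnd1 by some of them.

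Among the feedback genes, Axin2 and Znrf3 rested on more reads, with an estimated 80.3 to 291 and 1430 to 2630 pairs per library. Rnf43 and Notum were near the lower limit of these libraries. Axin2 (ENSMUSG00000000142.15, chromosome 11, 108920349 to 108950783, plus strand), a scaffold of the beta-catenin destruction complex and a widely used readout of Wnt signalling, stood at 8.21, 39.3, 6.59 and 21.2 TPM in non-trogocytic and at 11.8, 13.6, 15.4 and 16.0 TPM in trogocytic replicates 1 to 4. In TPM the trogocytic libraries all lay between the 2 lower and the 2 higher non-trogocytic ones. By deposited coverage, trogocytic replicate 3 at 6.155 was above non-trogocytic replicate 4 at 5.177, with 1.556 and 1.529 Gb aligned. The means were 18.8 ± 15.2 and 14.2 ± 1.89 TPM (SD, n = 4 each), with a log2 fold change of −0.06 ± 0.53 (95% interval −1.23 to 1.10; limma adjusted p = 0.9998) and −0.01 ± 0.50 relative to Epcam. The sign turned with the library left out, from −0.42 without non-trogocytic replicate 3 to 0.39 without non-trogocytic replicate 2.

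Znrf3 and Rnf43 encode related transmembrane ubiquitin ligases that remove Frizzled receptors from the cell surface. Znrf3 (ENSMUSG00000041961.14, chromosome 11, 5276324 to 5444847, minus strand) stood at 75.5, 88.0, 102 and 110.4 TPM in non-trogocytic and at 101, 84.5, 108 and 71.9 TPM in trogocytic replicates 1 to 4. The groups covered nearly the same range, with a log2 fold change of −0.04 ± 0.22 (95% interval −0.53 to 0.44; limma adjusted p = 0.9998) and 0.01 ± 0.23 relative to Epcam, which became −0.25 relative to Krt18. Rnf43 (ENSMUSG00000034177.15, chromosome 11, 87662722 to 87735539, plus strand) stood at 0.731, 5.56, 4.15 and 10.9 TPM in non-trogocytic and at 2.19, 3.39, 1.92 and 3.98 TPM in trogocytic replicates 1 to 4. Its lowest and its highest library were both non-trogocytic, and the log2 fold change was −0.445 ± 0.60 (95% interval −1.77 to 0.88; limma adjusted p = 0.9998) and −0.39 ± 0.54 relative to Epcam. It ran from −0.968 without non-trogocytic replicate 1 to −0.04 without non-trogocytic replicate 4. Rnf43 overlaps 1110028F11Rik on the same strand, and with the latter at a mean of 38.7 TPM the split of reads between the pair is uncertain.

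Notum (ENSMUSG00000042988.10, chromosome 11, 120653788 to 120661175, minus strand) encodes a secreted enzyme that removes the lipid from Wnt ligands. It was listed at 0, 3.65, 0.399 and 1.58 TPM in non-trogocytic replicates 1 to 4, and in the trogocytic group at 0.233 TPM in replicate 2 and at 0 in the other 3 libraries. Its 2 highest libraries, non-trogocytic replicates 2 and 4, were also the 2 highest in TPM for Axin2, Myc and Prom1. The highest value corresponds to an estimated 28.9 read pairs and the trogocytic value to 1.93. With no filter on low values the log2 fold change of Notum was −0.94 (limma adjusted p = 0.8368).

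**Figure D2:**
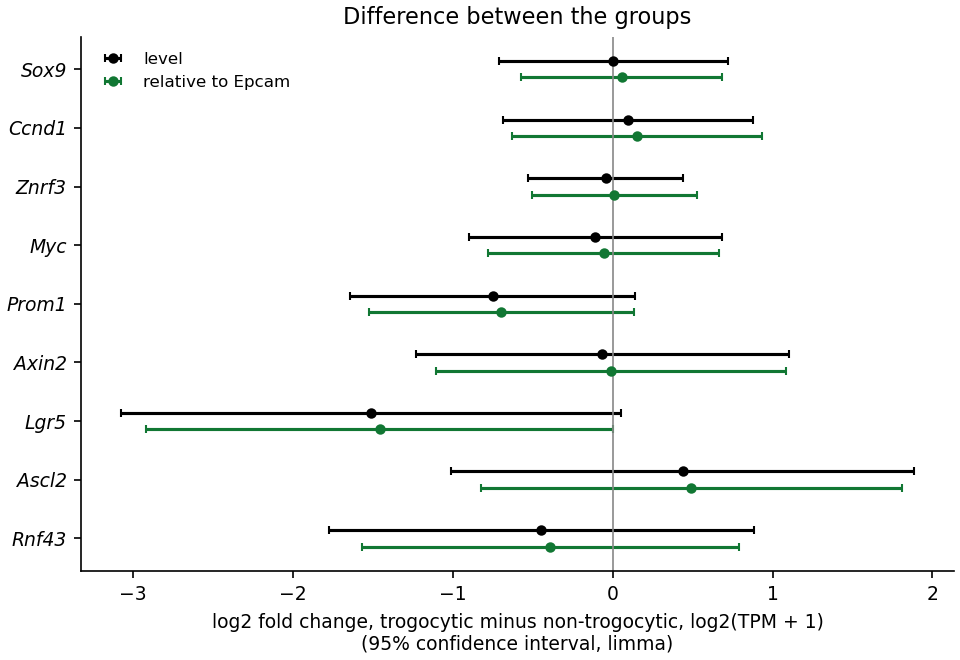
Log2 fold change of the 9 tested genes, trogocytic minus non-trogocytic on log2(TPM + 1), as a level (black) and relative to Epcam (green), with limma's 95% confidence intervals, not adjusted for the number of genes. The intervals for Lgr5 end at 0.05 and 0.005, and all others also include 0.

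Of the 36 correlations between the 9 tested genes, 32 were above 0, with a median Pearson's r of 0.418, and the order of the libraries differed between genes. Non-trogocytic replicates 2 and 4 were among the 2 highest of the 8 libraries for 6 and 7 of the 9 genes, and non-trogocytic replicate 1 was among the 2 lowest for 7. Trogocytic replicate 4 was the lowest library for 4 genes, Lgr5, Sox9, Znrf3 and Prom1, but ranked 3 of 8 for Axin2 and Myc. Leukocyte and epithelial levels differed between the same libraries: Ptprc stood at 60.1 and 55.8 TPM in non-trogocytic replicates 2 and 4, the 2 lowest of all, and Epcam was lowest in non-trogocytic replicate 1. The 9 macrophage markers summed to 3315 to 14380 TPM in non-trogocytic and to 1638 to 5180 TPM in trogocytic co-cultures, led by Lyz2 with means of 6418 and 2334 TPM. The part of this makeup in the gene levels was not tested.

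**Figure D3:**
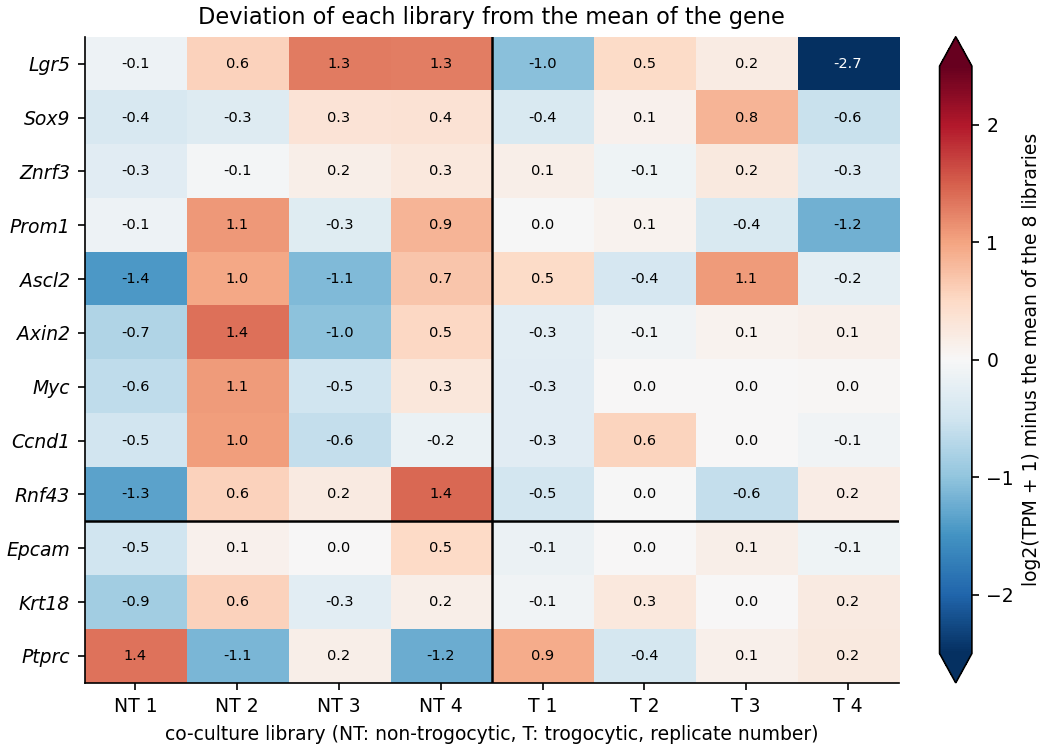
Deviation of each library from the gene's mean over the 8 libraries on log2(TPM + 1), for the 9 tested genes and, below the line, Epcam, Krt18 and Ptprc (red higher, blue lower, values printed in the cells). Axin2 and Myc show nearly the same order of libraries, while Lgr5 departs most in trogocytic replicate 4.

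Axin2 and Myc varied together over the 8 libraries. Pearson's r of their log2(TPM + 1) levels was 0.975 (exact permutation p = 0.0001736, adjusted p = 0.0094) and Spearman's rho 0.976 (exact permutation p = 0.0003968, adjusted p = 0.0214). This was the single relation to pass among 54 computed, 36 between the 9 genes and 18 with Epcam or Ptprc, all two-sided over all pairings of 8 libraries. Without the 2 libraries farthest from the median of Axin2, r was 0.979, and with each library left out in turn it ran from 0.95 to 0.993. With both genes taken relative to Epcam r was 0.957, relative to Krt18 0.898, and with the group means removed 0.977. Taking the same reference from both genes can by itself raise r. Each group alone holds too few libraries for its own r. Of all other tested genes, Myc was the nearest to Axin2 by Pearson's r, followed by Uqcrfs1, a respiratory chain subunit, with 0.974, both given as likeness with no further test. Sptlc2 and Tuba1b stood nearer to Myc than Axin2 did, with r of 0.979 and 0.978. The adjusted p covers the 54 relations and not all pairs of genes.

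Lgr5 did not follow Axin2. Their r was 0.018 (exact permutation p = 0.9646, adjusted p = 0.9646) and rho 0.024 (exact permutation p = 0.9768, adjusted p = 0.9768), and r was 0.049 without the 2 libraries farthest from the median of Lgr5. Lgr5 was highest in non-trogocytic replicate 3, where Axin2 was lowest, and lowest in trogocytic replicate 4, where Axin2 was above its median. The nearest genes to Lgr5 over the 8 libraries were Acer2, an alkaline ceramidase, with r = 0.983, and Dock1, an activator of Rac, with r = 0.956, given as likeness with no test. Between the other pairs the highest r was 0.865, for Myc and Ccnd1 (exact permutation p = 0.0057, adjusted p = 0.103; rho 0.738; 0.558 without the 2 libraries farthest from the median of Myc). Axin2 and Ccnd1 had an r of 0.818 (exact permutation p = 0.0134, adjusted p = 0.132; rho 0.762), which was 0.348 without the 2 libraries farthest from the median of Axin2. Axin2 and Ascl2 had an r of 0.782 (exact permutation p = 0.0179, adjusted p = 0.138), and Sox9 and Znrf3 an r of 0.752 (exact permutation p = 0.0346, adjusted p = 0.187).

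Several genes were lower where leukocyte RNA was higher, without passing the adjustment. With Ptprc, r was −0.883 for Rnf43 (exact permutation p = 0.0039, adjusted p = 0.103; rho −0.738), −0.821 for Myc (exact permutation p = 0.0093, adjusted p = 0.126; rho −0.762) and −0.748 for Axin2 (exact permutation p = 0.0305, adjusted p = 0.186; rho −0.69). Without the 2 libraries farthest from the median of Ptprc these became −0.764, −0.709 and −0.392. With the gene and Ptprc both taken relative to Epcam, r was −0.805 for Rnf43, −0.36 for Myc and −0.429 for Axin2, and relative to Krt18 it was −0.522, −0.28 and −0.45. The shared reference can by itself move r towards positive values, so these do not show how much of the relation is due to makeup. With Epcam, the highest r was 0.857, for Rnf43 (exact permutation p = 0.0147, adjusted p = 0.132; rho 0.619), and it was 0.114 without the 2 libraries farthest from the median of Epcam, so it rests on those.

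**Figure D4:**
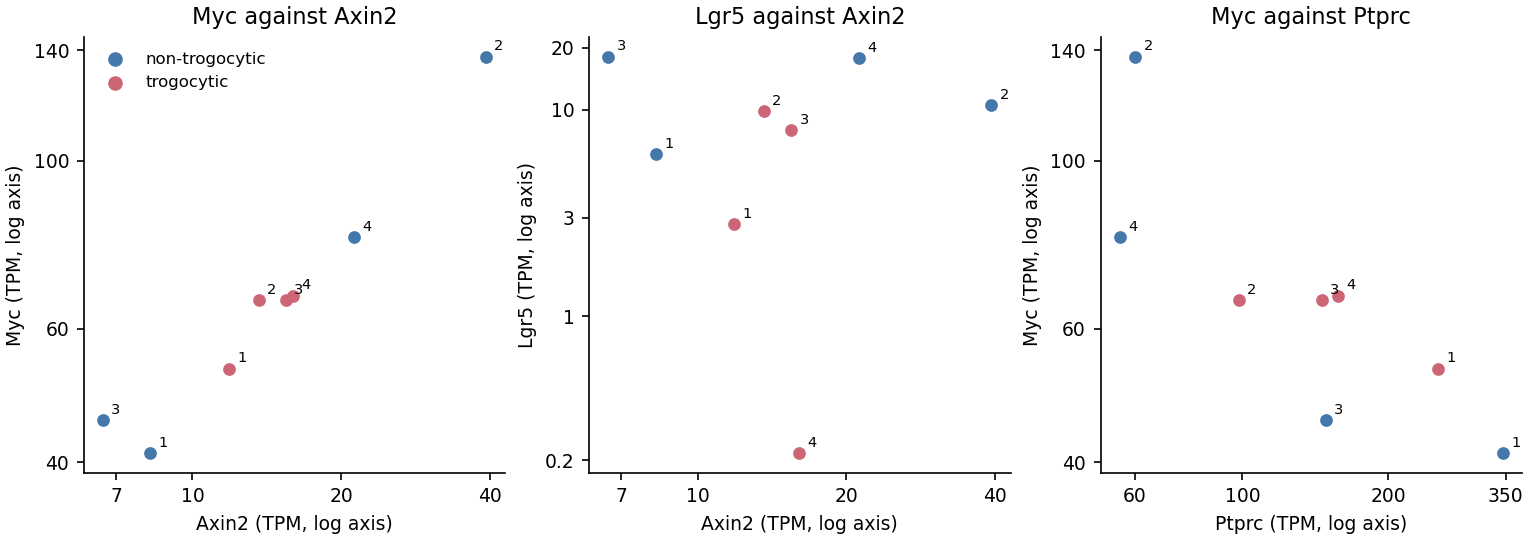
Levels in TPM on log axes of Myc against Axin2, Lgr5 against Axin2 and Myc against Ptprc, 1 point per co-culture (blue non-trogocytic, red trogocytic, with replicate numbers). Myc follows Axin2 (r = 0.975), Lgr5 does not (r = 0.018), and Myc is lowest where Ptprc is highest (r = −0.821).

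The RefSeq promoter table of GRCm38.p6 matched 4 of the 10 genes, with 6 promoters. The 250 bases before the start site of Axin2 (chr11:108920099-108920348, plus strand) and of Ascl2 (chr7:142969265-142969514, minus strand) are shown 5′ to 3′. These 2 Wnt targets were chosen because both were high in non-trogocytic replicates 2 and 4 and low in replicates 1 and 3. The pattern is not particular to them. Prom1 and Rnf43, which also have promoters there, were likewise higher in replicates 2 and 4 than in 1 and 3. Capitals mark GGGCGG, the GC box, and CCAAT, the CCAAT box, on either strand.
Axin2: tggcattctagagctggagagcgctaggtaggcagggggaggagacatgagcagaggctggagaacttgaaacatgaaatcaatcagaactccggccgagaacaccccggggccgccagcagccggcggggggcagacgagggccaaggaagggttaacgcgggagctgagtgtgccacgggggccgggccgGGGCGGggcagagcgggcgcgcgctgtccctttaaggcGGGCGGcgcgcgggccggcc
Ascl2: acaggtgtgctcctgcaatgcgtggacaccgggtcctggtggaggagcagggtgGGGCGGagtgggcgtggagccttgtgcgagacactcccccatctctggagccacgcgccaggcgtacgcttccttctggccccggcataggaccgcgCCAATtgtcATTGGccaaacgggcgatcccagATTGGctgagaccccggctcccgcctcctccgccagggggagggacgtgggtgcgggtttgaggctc

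The Axin2 window held GGGCGG at 2 places and no CCAAT, and the Ascl2 window GGGCGG at 1 place and CCAAT, read on either strand, at 3. Both were rich in G and C, at 69.2% and 67.6%, with 24 and 19 CG dinucleotides, beside medians of 52.4% and 6 over all 32851 promoters. The core letters of TCF/LEF motifs, CTTTG on either strand, were in none of the 6 windows, including those of Rnf43 and Prom1, and in 48.6% of all promoters of the same length. The longer form CTTTGAT, which contains that core, was in 3.21% of all. GGGCGG was in 32.7% and CCAAT in 33.8% of all promoters. These are matches of letters and not measured sites.

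The rest of the pathway was read from lists of 120 further genes, of which 55 were tested and none passed limma's test on either scale. Of the 55, 33 had a fold change below 0 as a level, with a median of −0.07, and 28 relative to Epcam, with a median of −0.02, beside the values over all genes above. Groups without overlap were seen in 1 of them, Alcam, against 2.68% of all genes.

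Wnt ligand genes were mostly at 0. Of 25 genes of ligands, R-spondins and secretion, 15 were listed at 0 in all 8 libraries, among them Wnt3, Wnt3a, Rspo1 and Rspo2, and 3 were tested. Wls, the carrier that brings Wnt proteins to the cell surface, stood at 99.0 ± 15.4 and 88.2 ± 30.3 TPM (SD, n = 4 each, non-trogocytic first here and below; limma adjusted p = 0.9998). Wnt6 stood at 4.23 ± 2.26 and 4.51 ± 3.59 TPM and Wnt16 at 1.80 ± 1.25 and 2.39 ± 4.57 TPM. Trogocytic replicate 2 held 9.24 TPM of Wnt16, and the other trogocytic libraries at most 0.313 TPM. For Wnt6 and Wnt16 the mean TPM was higher in the trogocytic group while the log2 fold changes, −0.08 and −0.43, were below 0. Of 17 receptor genes 6 were tested, and Lgr4, the paralog of Lgr5 that also binds R-spondins, was the most abundant. Lgr4 stood at 23.0, 23.6, 33.3 and 29.6 TPM in non-trogocytic and at 48.8, 35.7, 37.3 and 29.3 TPM in trogocytic replicates 1 to 4, and its log2 fold change was 0.44 ± 0.28 (limma adjusted p = 0.9998). Its sign was opposite to that of Lgr5, though neither passed and the difference between the 2 genes was not tested. Ryk, a Wnt co-receptor, stood at 21.9 ± 8.53 and 16.9 ± 7.37 TPM and Fzd7, a Frizzled receptor, at 2.18 ± 1.73 and 1.42 ± 2.34 TPM. Trogocytic replicate 2 held 4.93 TPM of Fzd7, and the other trogocytic libraries at most 0.38 TPM.

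Of 27 genes of signal transduction 19 were tested, 12 of the 19 with a fold change above 0. Csnk1a1, the casein kinase that primes beta-catenin for destruction, stood at 256 ± 29.5 and 270 ± 15.6 TPM, and Tcf7l2, the main TCF factor of intestinal epithelium, at 146 ± 39.8 and 164 ± 59.1 TPM. Axin1, the constitutively expressed homologue of Axin2, stood at 8.22 ± 3.57 and 5.00 ± 4.49 TPM, and Aes, a short Groucho corepressor, at 20.5 ± 6.07 and 12.2 ± 4.61 TPM. Aes had the smallest p of this list, and its log2 fold change was −0.74 ± 0.38 (limma adjusted p = 0.9998). T cells also express TCF/LEF genes of this list, and their 10 markers in the marker list summed to 313 to 1090 TPM in non-trogocytic and 592 to 1647 TPM in trogocytic co-cultures; their part in the list was not tested. Of 17 inhibitor genes, 7 were listed at 0 in all libraries and 1 was tested, Dkk2, which blocks LRP receptors. Dkk2 stood at 6.53, 56.1, 35.6 and 28.6 TPM in non-trogocytic and at 5.64, 22.0, 26.1 and 19.2 TPM in trogocytic replicates 1 to 4, so it was lowest in replicate 1 of both groups (log2 fold change −0.62 ± 0.65, limma adjusted p = 0.9998).

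Other Wnt targets had 15 of 19 tested, 11 with a fold change below 0 as a level and 8 relative to Epcam. The reference moves all genes alike, as with the median of this list, from −0.181 to −0.128. Id2, an inhibitor of differentiation, stood at 1313 ± 476 and 1013 ± 346 TPM, and Birc5, which encodes the mitotic protein survivin, at 498.5 ± 121 and 573 ± 177 TPM. Mmp7, the matrix protease matrilysin, stood at 26.1, 131, 208 and 248.5 TPM in non-trogocytic and at 25.9, 82.2, 75.8 and 60.5 TPM in trogocytic replicates 1 to 4. Replicate 1 was lowest in both groups, and the other 3 non-trogocytic libraries were above all trogocytic ones. Its log2 fold change was −1.04 ± 0.64 (limma adjusted p = 0.9998).

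Other intestinal stem markers had 11 of 15 tested, 7 with a fold change below 0. Ly6a, or Sca-1, a surface protein of regenerating epithelium and also of many leukocytes, stood at 2521 ± 654 and 2392 ± 612 TPM, and Clu, which encodes clusterin of revival stem cells, at 203 ± 116 and 205 ± 38.7 TPM. Alcam, an adhesion molecule, stood at 16.8, 14.7, 14.4 and 22.2 TPM in non-trogocytic and at 5.60, 12.7, 12.7 and 12.3 TPM in trogocytic replicates 1 to 4, so each non-trogocytic library was above each trogocytic one. Its log2 fold change was −0.65 ± 0.38 (limma adjusted p = 0.9998). Lrig1, an ERBB inhibitor, stood at 1.44 ± 0.461 and 0.656 ± 0.952 TPM. Trogocytic replicate 2 held 2.08 TPM of Lrig1, and the other trogocytic libraries at most 0.237 TPM. Olfm4, a stem cell marker of the human gut and the mouse small intestine, was listed at 0 in all 8 libraries and was named after its values were seen.

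**Figure D5:**
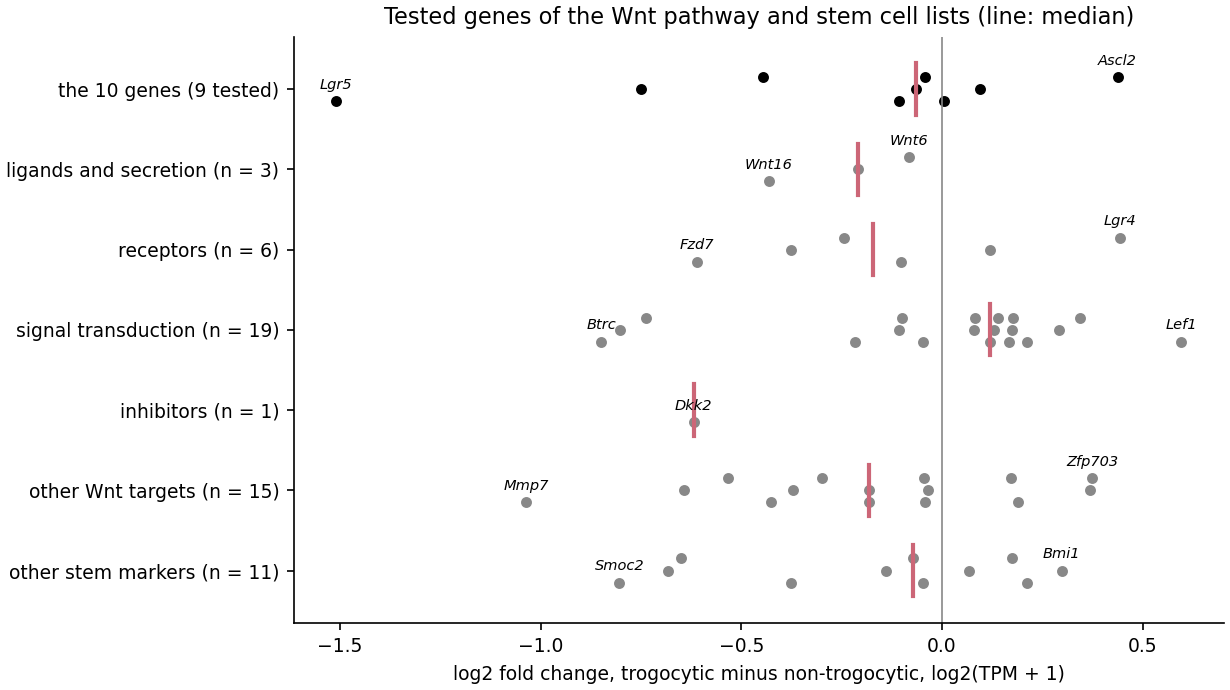
Log2 fold change as a level, trogocytic minus non-trogocytic on log2(TPM + 1), of the 9 tested genes (black) and of 55 tested genes in 6 lists (grey), with list medians as red lines and the outermost genes named. No point passed limma's test, and the medians lie between −0.62 for the single inhibitor and 0.12 for signal transduction.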

How the data were processed

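Each deposited file is the gene abundance table of 1 library. Per the submitters' processing notes, the tools were StringTie 1.3.3, HISAT2 and DESeq version 2, and the builds mm10 and GRCm38. Neither the strand setting nor the annotation release is stated in the labels or headers used here. Read counts were not analysed here. Per the file headers, the authors give a coverage (mean read depth per base), an FPKM and a TPM per gene. The deposited TPM values sum to 1000000 in each library. Rows were summed per gene ID. Read pairs behind a level were estimated as deposited coverage times the exon length of GENCODE M21 (GRCm38) divided by 200 bases, which assumes full-length pairs.

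The test was limma 3.58.1 in R 4.3.3, fitted to log2(TPM + 1) values of the genes that reached 1 TPM in 4 libraries, with a trend of the variance over the mean. It was two-sided, and p-values were adjusted by Benjamini-Hochberg over all these genes, with a threshold of 0.05. Such fold changes understate changes of low genes. Relative to Epcam means minus the log2(Epcam TPM + 1) of the same library. This moves the log2 fold change of every gene by the same amount, while the SE and p change by gene. The test was checked on simulated data with independent noise per gene, which leaves out shifts that genes of a library share. The genes and lists were chosen with earlier results of these data known. Named genes are the 10 genes, the 2 highest and the 2 with the smallest p of each list, Epcam, Ptprc and the nearest genes by Pearson's r, of which a part is printed. Alternatives covered pseudocount, filter, deposited FPKM, scaling, trend, reference gene, block and libraries left out.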

Additional observations from a re-analysis of the deposited data

Results flagged for a closer look

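In groups of 4 libraries, the highest or lowest library stood far from the other 3, by Dixon's criterion at 95%, in 5 of 40 groups checked. Chance flags about 1 in 20 of independent groups, but these share libraries and each gene enters both in TPM and as a share of Epcam, so the counts are not compared. Myc stood at 53.2 TPM in trogocytic replicate 1, below 65.5 to 66.4 TPM in the other 3. Relative to Epcam, Myc reached 36.3% in non-trogocytic replicate 2, the library with the highest Axin2. Ccnd1 stood at 250.1 TPM in the same library. Notum was found at 0.233 TPM, or 0.0654% of Epcam, in trogocytic replicate 2 and was listed at 0 in the other 3 trogocytic libraries, a pattern that meets the criterion whatever the value. It corresponds to an estimated 1.93 read pairs.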

How the results depend on the processing

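None of the 304 recomputed fold changes of the 9 tested genes passed the threshold, with a smallest adjusted p of 0.7174, and the count of these genes called was 0 under each alternative run. Lgr5 and Prom1 were below 0 under each, from −2.05 to −0.87 and −1.04 to −0.47 as levels and from −1.995 to −0.84 and −0.96 to −0.45 relative to Epcam, and Rnf43 was too. Their unadjusted limma p-values as levels ran from 0.0254 to 0.157 for Lgr5 and from 0.0424 to 0.252 for Prom1, and relative to Epcam or its replacements from 0.0221 to 0.143 and from 0.0299 to 0.258. As levels, Ascl2 turned from 0.44 to −0.051 without the first replicates of both groups and Sox9 to −0.048 with FPKM. Relative to Epcam, Znrf3 turned to −0.006 without those replicates and Axin2 to 0.006 with a pseudocount of 0.1. With 10 epithelial markers as reference, Axin2 came to 0.049 and Myc to 0.005. With Krt18 as reference Ccnd1, Sox9 and Znrf3 came to −0.11, −0.20 and −0.25. A change of reference moves the fold changes of all genes alike. The median of all genes moved by −0.261 with Krt18 and by 0.059 with the 10 markers. The cause of the other turns was not tested. With single libraries left out, levels ran from −0.42 to 0.39 for Axin2, −0.085 to 0.46 for Ccnd1, −0.34 to 0.23 for Myc, −0.28 to 0.19 for Sox9, −0.142 to 0.065 for Znrf3, 0.036 to 0.835 for Ascl2 and −0.968 to −0.04 for Rnf43, and relative values from −0.36 to 0.42, −0.043 to 0.49, −0.24 to 0.26, −0.17 to 0.22, −0.082 to 0.091, 0.197 to 0.864 and −0.738 to −0.141. Over all genes, 6 were called as a level, 1 with no filter, 1 with no mean-variance trend, 0 without the first replicates of both groups and 0 to 3 with a library left out, where fewer samples are fitted. Relative to Epcam the count was 0 throughout. The alternatives for the correlation of Axin2 and Myc were chosen after seeing the data.

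The replicate numbers were not shown to pair the libraries. Same-numbered libraries 1 to 4 had correlations of their deviations of 0.235, 0.005, 0.062 and −0.093, against −0.214 to 0.166 for unlike numbers. The value for replicate 1 was the highest of all. With the replicate block, 0 genes were called as a level, and not every library correlated best with its own number. Depth limits Lgr5, Ascl2, Rnf43 and Notum most.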
